A study of Mus musculus with 4 samples.

Results

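Immunoglobulin light chain V segments are the gene segments that encode the variable end of the antibody light chain. They were taken as every gene whose symbol starts with Igkv (kappa) or Iglv (lambda) followed by a digit, which gave 163 of the 32285 genes measured: 160 kappa and 3 lambda segments. Mononuclear blood cells came from 2 inbred mouse strains, BL/6 and SM/J, at ages of 12 and 20 months, and their RNA was read cell by cell with 10x Genomics 3' chemistry; no treatment or engineered allele is named. Each strain and age gave 1 count matrix, called a library here, and the 12-month and 20-month cells of each strain shared 1 multiplexed 10x sample, so strain and run cannot be told apart. The cells of a library carry 3 different tag oligos; cells sharing a tag are called an aliquot, and it is not given in the sources used here if an aliquot is 1 animal or part of a pool. No group had a replicate library, so no test was made, and the intervals given are 95% intervals for counting error only.

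A developing B cell joins 1 V segment to a J segment and transcribes it together with a kappa constant region (Igkc) or a lambda one (Iglc1, Iglc2 or Iglc3). Each B cell usually keeps 1 productive light chain and 1 heavy chain, and its daughter cells inherit both, so that the V segments of a cell mark its lineage. Most mouse B cells use kappa. Among the known pairs is that of the heavy segment Ighv11-2 with the light segment Igkv14-126, found in B-1a cells, a self-renewing population, where it gives antibodies that bind phosphatidylcholine.

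The segments that carried most of what follows are shown by their coding V exons to let near-identical members be compared. Positions are on GRCm38, the build named mm10 in the submitters' processing notes, and sequences are those of the GENCODE M21 reference, not of the SM/J genome. Igkv17-127 (chr6:67861374-67861659, plus strand) and Igkv17-121 (chr6:68037028-68037318, plus strand) were identical at 96.2% of aligned bases. Capitals in this pair mark their 6 mismatches and the 5 bases that the annotation adds at the 5′ end of Igkv17-121.
Igkv17-127: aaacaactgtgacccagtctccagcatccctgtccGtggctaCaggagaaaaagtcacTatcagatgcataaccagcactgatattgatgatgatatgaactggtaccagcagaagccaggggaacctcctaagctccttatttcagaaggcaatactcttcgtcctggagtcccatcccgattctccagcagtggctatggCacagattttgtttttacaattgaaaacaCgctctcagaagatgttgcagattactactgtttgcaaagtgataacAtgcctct
Igkv17-121: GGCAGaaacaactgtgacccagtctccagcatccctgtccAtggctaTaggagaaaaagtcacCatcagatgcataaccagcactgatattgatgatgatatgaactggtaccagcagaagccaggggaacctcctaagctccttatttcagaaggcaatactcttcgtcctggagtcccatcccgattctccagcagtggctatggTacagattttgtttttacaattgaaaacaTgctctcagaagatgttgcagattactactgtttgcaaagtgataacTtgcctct
Igkv14-126 (chr6:67896345-67896642, plus strand) is more distinct, since its closest member, Igkv14-111, matched it at 90.9% of bases. Capitals mark the 27 mismatches to Igkv14-111.
Igkv14-126: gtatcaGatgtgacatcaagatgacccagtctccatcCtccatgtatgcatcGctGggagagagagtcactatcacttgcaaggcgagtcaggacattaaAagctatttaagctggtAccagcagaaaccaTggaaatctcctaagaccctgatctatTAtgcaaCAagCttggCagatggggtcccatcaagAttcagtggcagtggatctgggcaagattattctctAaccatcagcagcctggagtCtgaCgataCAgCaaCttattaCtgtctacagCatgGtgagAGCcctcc
The lambda segments Iglv2 (chr16:19260401-19260700, minus strand) and Iglv1 (chr16:19085017-19085316, minus strand) were identical at 96.4%, with 3 bases present in only 1 of them counted as differences. The last 300 bases of each exon are shown. Capitals mark the 8 mismatches of this pair.
Iglv2: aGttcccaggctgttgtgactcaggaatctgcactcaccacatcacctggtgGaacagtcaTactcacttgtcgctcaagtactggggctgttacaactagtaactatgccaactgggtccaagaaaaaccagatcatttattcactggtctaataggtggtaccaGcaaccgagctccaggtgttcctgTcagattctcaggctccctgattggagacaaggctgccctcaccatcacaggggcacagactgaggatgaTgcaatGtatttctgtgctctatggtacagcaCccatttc
Iglv1: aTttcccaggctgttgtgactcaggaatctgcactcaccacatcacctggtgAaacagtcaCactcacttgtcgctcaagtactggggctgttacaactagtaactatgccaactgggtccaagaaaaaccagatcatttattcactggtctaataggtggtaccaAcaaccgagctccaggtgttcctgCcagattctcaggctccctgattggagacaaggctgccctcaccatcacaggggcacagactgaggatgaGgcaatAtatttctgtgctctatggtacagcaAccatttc

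All 163 members matched the annotation by identifier and symbol, 103 as functional V genes and 60 as V pseudogenes. B-lineage cells were those with at least 1 UMI of Cd79a, a signalling chain of the B cell receptor, of which BL/6 gave 2043 at 12 months and 1088 at 20 months, and SM/J 1392 and 1752. In the same order, 197, 157, 279 and 494 of these cells were classed as mixed-lineage and were kept. A cell was assigned to the segment with its highest count if that count was at least 2 UMIs and not tied. Of the 163 members, 116 had a UMI in these cells, 50 had one in every library, and 72 led at least 1 cell. The other 91 members led no cell, and 47 had no UMI at all. In all, 11332 light V UMIs assigned 1221 of 6275 cells. A 3' library reads the V end of a transcript rarely: there were 1.39 to 1.81 V UMIs for every 100 UMIs of the light constant genes. Assignment reached 43.9% of cells in SM/J at 20 months, against 8.96%, 12.6% and 9.41% in the younger BL/6, older BL/6 and younger SM/J libraries. The median depth of Cd79a cells was 9743 UMIs in the first of these and 3689, 3588.5 and 4545 UMIs in the others. At an equal 1000 UMIs per cell, 4.29% of cells were assigned in the older SM/J library, against 0.857%, 2.01% and 0.383%. At least 1 V UMI was seen in 37.6% to 70.9% of Cd79a cells. In cells that should lack light chains, T cells and myeloid cells without Cd79a, it was seen in 0.169% to 2.33%, at median depths of 4149 to 10320 UMIs, and none of those cells reached 2 UMIs of any segment. No cell barcode was shared by both ages of a strain, and 8 occurred in 2 or more of the 4 matrices.

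Most assigned cells of SM/J at 20 months were led by 3 kappa segments. Igkv14-126 led 325 of 770 cells (42.2%, 38.7 to 45.8%), Igkv17-127 led 201 (26.1%, 23.0 to 29.4%) and Igkv17-121 led 107 (13.9%, 11.5 to 16.5%). Together they made up 82.2% of assigned cells, against 44.3% for the 3 leading segments of SM/J at 12 months and 33.9% and 26.3% for those of BL/6 at 12 and 20 months. Assigned cells were 43.9% of the Cd79a cells of SM/J at 20 months, and assignment differed by B subset, as given below. The same segments were less frequent in the other 3 libraries. Igkv14-126 led 9.84%, 3.65% and 9.16% of cells in BL/6 at 12 months, BL/6 at 20 months and SM/J at 12 months. Igkv17-127 led 6.56%, 3.65% and 3.82%, and Igkv17-121 led 1.64%, 2.19% and 0.763%, in the same order. From 12 to 20 months in SM/J, the share of Igkv14-126 was higher by 33.0 percentage points (26.0 to 38.3), that of Igkv17-127 by 22.3 (16.6 to 26.2) and that of Igkv17-121 by 13.1 (9.02 to 15.8). The library of 20 months was also the deepest. With every cell thinned to 1000 UMIs, 58 cells of it could still be assigned and Igkv14-126 led 31.0% of them, while only 4 cells of SM/J at 12 months could be assigned.

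**Figure D1:**
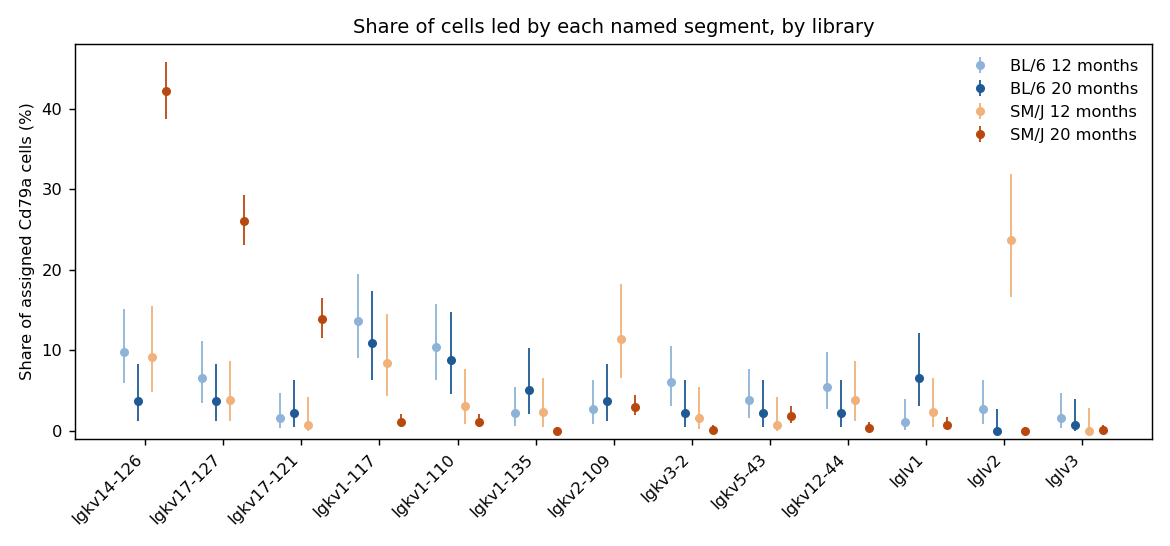
Share of assigned Cd79a cells (y axis, percent) led by each of the 13 named segments (x axis) in the 4 libraries; points are shares and bars are exact 95% intervals for counting error. Igkv14-126, Igkv17-127 and Igkv17-121 stand at 42.2%, 26.1% and 13.9% in SM/J at 20 months, and Iglv2 at 23.7% in SM/J at 12 months.

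The 3 segments were spread evenly over the tagged aliquots of that library. Igkv14-126 led 43.9%, 40.9% and 42.0% of assigned cells in the 3 aliquots, Igkv17-127 led 31.0%, 23.4% and 24.4%, and Igkv17-121 led 11.7%, 14.9% and 14.9%. The lowest of these aliquot values lay above the highest aliquot value of every other library for each of the 3 segments. In those libraries the aliquots ranged from 0% to 12.8% for Igkv14-126, from 0% to 11.3% for Igkv17-127 and from 0% to 3.33% for Igkv17-121.

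**Figure D2:**
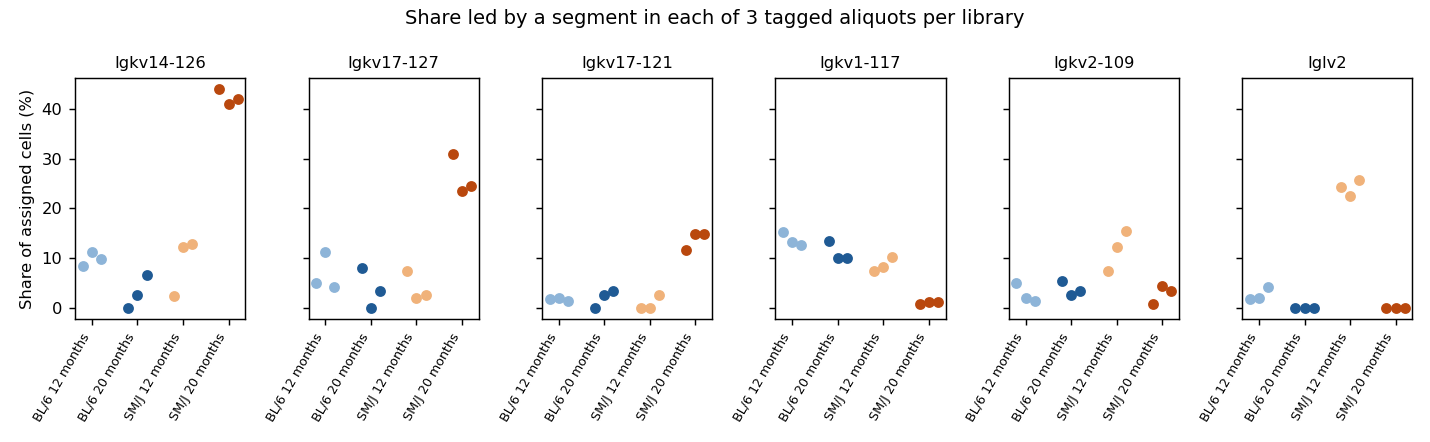
Share of assigned cells led by 6 segments (panels; y axis, percent) in the 3 tagged aliquots of each library; each point is 1 aliquot, and aliquots are not known to be animals. In SM/J at 20 months the 3 points of Igkv14-126 lie between 40.9% and 43.9%, and in SM/J at 12 months those of Iglv2 lie between 22.4% and 25.6%.

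More segments shared the assigned cells in the other 3 libraries. The effective number of segments (the inverse Simpson index, which equals the number of segments if all were used equally) was 17.4 and 24.0 in BL/6 at 12 and 20 months, 10.5 in SM/J at 12 months and 3.73 in SM/J at 20 months. Since the numbers of cells differed, the expected number of different segments in 100 assigned cells was also computed: 37.4, 41.2, 29.5 and 14.4 in the same order. The effective numbers depended on the UMI minimum: with 1 UMI they were 36.4 in BL/6 at 12 months, 12.1 in SM/J at 12 months and 5.29 in SM/J at 20 months. With 5 UMIs they were 5.54 (12 cells), 2.79 (9 cells) and 3.10 (299 cells), so that the younger SM/J library was no longer above the older one. Igkv1-117 led the most assigned cells in BL/6, 25 of 183 cells (13.7%) at 12 months and 15 of 137 (10.9%) at 20 months, although it was not first by share of light V UMIs. At 12 months Iglv1 (7.57%) and Igkv14-126 (6.60%) were above its 6.32%, and at 20 months Iglv1 (19.4%) and Igkv6-20 (5.89%) were above its 4.96%. At 20 months most UMIs of these 2 segments lay in 48 cells with at least 10 Jchain UMIs. Those cells held 326 of 356 Iglv1 and 98 of 108 Igkv6-20 UMIs, against 27 of 91 for Igkv1-117. By share of assigned cells, Igkv1-110 followed Igkv1-117 with 10.4% and 8.76%. In SM/J, Igkv1-117 led 8.40% of cells at 12 months and 1.04% at 20 months, and Igkv1-110 led 3.05% and 1.04%. The remaining named kappa segments, Igkv1-135, Igkv3-2, Igkv5-43 and Igkv12-44, led between 0% and 6.01% of cells in every library.

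Along the Igk locus on chromosome 6, usage was uneven in every library. The 40 kappa members with the lowest coordinates, which lie farthest from Igkc, held 53.2% of kappa-assigned cells in BL/6 at 12 months, 51.2% at 20 months, 59.8% in SM/J at 12 months and 88.6% in SM/J at 20 months. The next 40 members held 3.15% to 12.6%. Igkv17-127, Igkv14-126 and Igkv17-121 are numbers 12, 14 and 19 in that order. A gap of 34.5 kb with 1 member in it separates the genes Igkv17-127 and Igkv14-126, and 140.2 kb with 4 members separate Igkv14-126 and Igkv17-121.

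**Figure D3:**
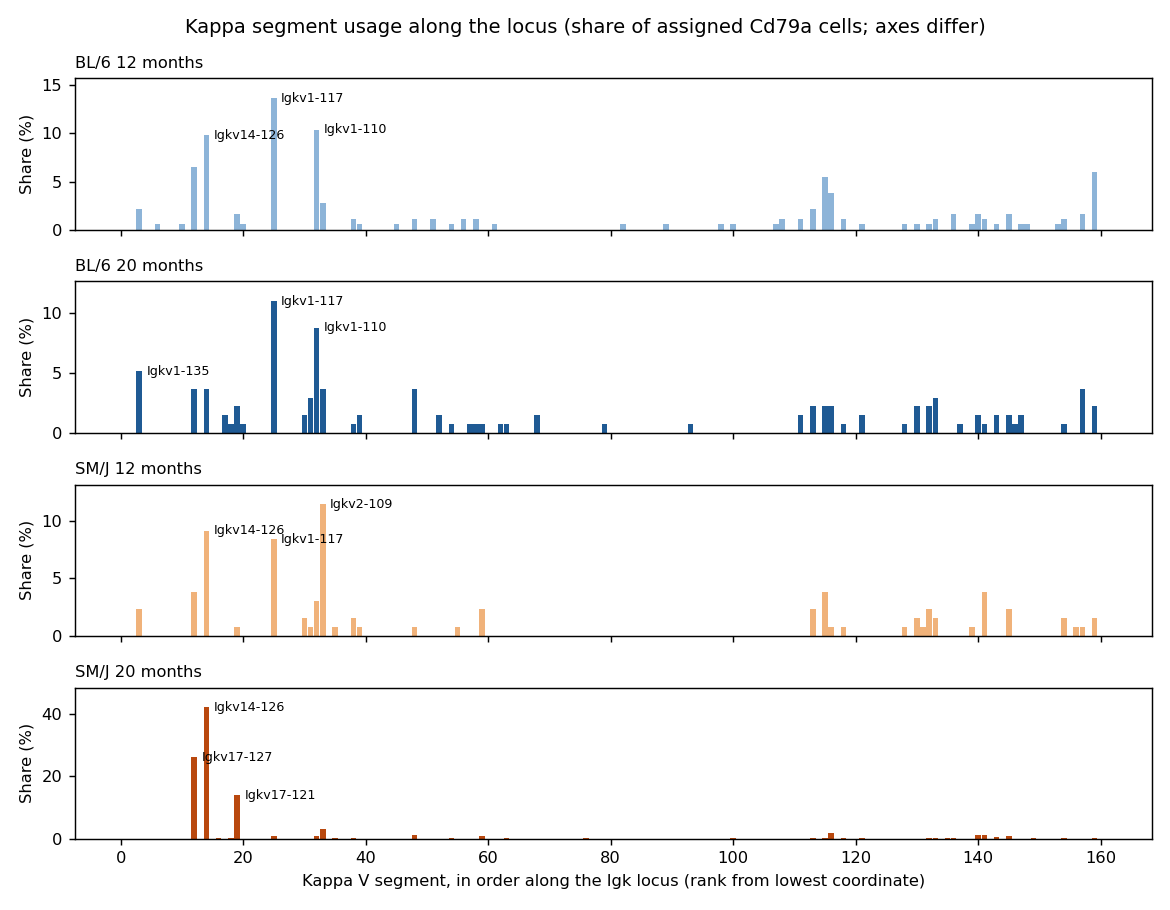
Share of assigned Cd79a cells (y axis, percent, scaled separately in each panel) led by each of the 160 kappa segments (x axis, rank along the locus) in the 4 libraries; the 3 highest kappa segments of each library are named. In SM/J at 20 months the bars of Igkv17-127, Igkv14-126 and Igkv17-121, at ranks 12, 14 and 19, exceed all other bars.

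The 3 segments of SM/J at 20 months occurred in different cells and each had its own heavy chain partner. Of 651 cells with at least 2 UMIs of any of the 3, only 7 held 2 of them: 6 held Igkv14-126 with Igkv17-127, 1 held Igkv14-126 with Igkv17-121, and 0 of the 107 Igkv17-121 cells held Igkv17-127, which is 96.2% identical to it. A leading heavy V segment with at least 2 UMIs was available for 46 cells led by Igkv14-126, 115 led by Igkv17-127 and 70 led by Igkv17-121. Ighv11-2 was that partner in 45 of 46 cells of Igkv14-126. Ighv2-5 was the partner in 115 of 115 cells of Igkv17-127, and Ighv1-66 in 70 of 70 cells of Igkv17-121. Among the 9 cells led by other light segments that had a heavy segment, 1 carried Ighv11-2 and none carried Ighv2-5 or Ighv1-66.

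**Figure D4:**
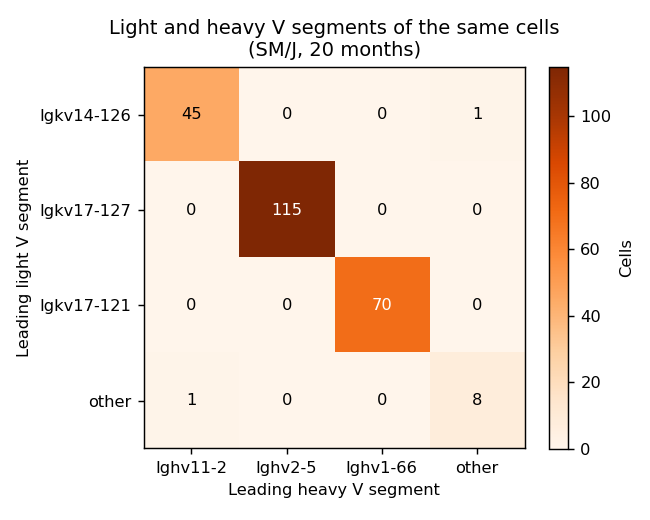
Number of cells (colour and printed number) by leading light V segment (y axis) and leading heavy V segment (x axis) in SM/J at 20 months, for cells with at least 2 UMIs of both. Most cells lie in 3 fields, 45 with Igkv14-126 and Ighv11-2, 115 with Igkv17-127 and Ighv2-5, and 70 with Igkv17-121 and Ighv1-66; 1 other Igkv14-126 cell and 9 cells led by other light segments lie outside them.

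The pair of Igkv14-126 with Ighv11-2 was also seen in both libraries of 12 months. It was found in 2 of 2 such cells with a heavy segment in BL/6 at 12 months and in 2 of 2 in SM/J at 12 months, while BL/6 at 20 months had no cell of Igkv14-126 with a heavy segment. Igkv17-127 had other partners elsewhere, Ighv6-6 in the 1 cell of BL/6 at 12 months and Ighv14-2 in the 1 cell at 20 months. No cell of Igkv17-121 outside SM/J at 20 months had a heavy segment at this depth.

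B subsets were set by UMIs of genes other than V segments, so the V segments took no part in the gates. The gates are UMI minimums, which deeper cells pass more easily, as they do the minimum for assignment; the part of depth in the shares by gate was not tested. Zcwpw1 encodes a reader of histone methylation, Fras1 an extracellular matrix protein and Lmo7 a LIM-domain protein, and these genes had set B cells of these libraries apart in earlier results. Cells with at least 2 Zcwpw1 UMIs are called Zcwpw1-high, those with at least 2 UMIs of Fras1 and Lmo7 together Fras1/Lmo7 cells, and those with at least 1 UMI of Fcer2a or Cr2, receptors of follicular B cells, Fcer2a/Cr2 cells. Cells passing both the Zcwpw1 and the Fras1/Lmo7 gate, and cells with 10 or more Jchain UMIs, were kept apart from these. In SM/J at 20 months, 60.6% of Zcwpw1-high cells, 86.6% of cells in both gates and 92.7% of cells with 10 or more Jchain UMIs were assigned. Among Fcer2a/Cr2 cells it was 9.82%, and among cells in no gate 12.2%. The shares of that library are therefore shares of assigned cells and not of all its Cd79a cells. The 406 assigned Zcwpw1-high cells of SM/J at 20 months were led by Igkv14-126 (226 cells, 55.7%, 50.7 to 60.6%) and Igkv17-127 (158 cells, 38.9%, 34.1 to 43.8%), and Igkv17-121 led 2 of them. The 174 assigned cells that passed both the Zcwpw1 and the Fras1/Lmo7 gate were led by Igkv17-121 (85 cells, 48.9%, 41.2 to 56.5%), Igkv14-126 (63 cells, 36.2%) and Igkv17-127 (20 cells, 11.5%). The share of Igkv17-121 there was 40.4%, 51.6% and 53.3% in the 3 aliquots. Zcwpw1-high cells were rarer in the other libraries, with 53, 8 and 30 cells against 670.

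Igkv14-126 lay with Zcwpw1 in all 4 libraries. At least 2 Zcwpw1 UMIs were found in 17 of 18 cells led by Igkv14-126 in BL/6 at 12 months, 4 of 5 in BL/6 at 20 months, 8 of 12 in SM/J at 12 months and 324 of 325 in SM/J at 20 months. For Igkv17-127 the numbers were 0 of 12, 0 of 5, 1 of 5 and 198 of 201. Zcwpw1 in SM/J at 20 months stood at 1598 CPM (the UMIs of a gene scaled by all UMIs of these cells) in cells of Igkv14-126, 1334 CPM in those of Igkv17-127 and 1680 CPM in those of Igkv17-121. Cells of Igkv17-121 stood apart by depth and by Fras1: their median depth was 27050 UMIs, against 13436 and 11631 for Igkv14-126 and Igkv17-127, and Fras1 stood at 571 CPM, against 75.2 and 38.5 CPM. Lmo7, the other gene of that gate, was at 0.771 to 1.58 CPM in all 3. Ighm, the constant region of IgM, was at 12788 CPM in cells of Igkv17-121, against 5746 CPM for Igkv14-126 and 6691 CPM for Igkv17-127. Ighd, the constant region of IgD, was at 8.86 to 13.2 CPM in the 3 groups and at 94.6 CPM in cells led by all other segments.

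In SM/J at 20 months, of 5 genes listed as B-1 cell markers 3 were higher in Zcwpw1-high than in Fcer2a/Cr2 cells by a log2 ratio of CPM + 1 of at least 1, against 13.1% of all genes with at least 20 UMIs. Of the other two, Spn was lower by that measure, against 16.5% of all genes, and Cd5 had too few UMIs. Zbtb32 was at 92.7 against 4.36 CPM, Bhlhe41 at 135 against 26.2 CPM and Ahnak at 704 against 205 CPM. Cd5, the surface protein that defines B-1a cells, was at 1.25 against 10.2 CPM, and Spn (CD43) at 10.2 against 27.6 CPM. Of markers of other lineages, Cd3e of T cells was at 0.794 against 2.91 CPM, Csf1r of monocytes at 3.97 against 39.2 CPM and Lyz2 of myeloid cells at 147 against 417 CPM.

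Outside these gates the SM/J library at 20 months was as varied as the others. The 59 assigned cells in none of the gates used 27 segments, an effective number of 17.0, and Igkv14-126, Igkv17-127 and Igkv17-121 together led 3 of them (5.08%). The corresponding effective numbers were 12.3 and 18.0 in BL/6 at 12 and 20 months and 13.2 in SM/J at 12 months. Fcer2a/Cr2 cells gave 15.5 in SM/J at 12 months, and 14.4 and 11.3 in the BL/6 libraries. The Fras1/Lmo7 cells of SM/J at 20 months that were not Zcwpw1-high were led by segments also frequent outside the gates: Igkv2-109 led 9 of 39 (23.1%, 11.1 to 39.3%) and Igkv5-43 led 7 (17.9%), and the Igkv17 segments led none. Outside the gates Igkv5-43 led 7 of 59 cells (11.9%) and Igkv2-109 led 5 (8.47%), with overlapping intervals. Both led on few UMIs, near the minimum of 2. Over all cells they led in that library, the mean was 2.39 for Igkv2-109 and 2.93 for Igkv5-43, against 5.69 for Igkv14-126.

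Lambda usage was highest in SM/J at 12 months. The 3 lambda segments led 34 of 131 cells there (26.0%, 18.7 to 34.3%), against 10 of 183 (5.46%) and 10 of 137 (7.30%) in BL/6 at 12 and 20 months and 7 of 770 (0.909%) in SM/J at 20 months. As shares of light V UMIs, lambda was 15.1% and 22.1% in BL/6 at 12 and 20 months, 27.3% in SM/J at 12 months and 9.69% in SM/J at 20 months, which narrows the gap to the older BL/6 library. In that older BL/6 library, 48 cells with at least 10 Jchain UMIs held 1251 of 1834 light V UMIs and 326 of 356 Iglv1 UMIs. The lambda share of UMIs without those cells is not given. Among assigned cells Iglv2 made most of the difference, with 31 cells (23.7%, 16.7 to 31.9%) in SM/J at 12 months and 5 (2.73%) in BL/6 at 12 months. It led 0 of 137 cells in BL/6 at 20 months, which allows a share of up to 2.19% when the limit is set at 3 cells of the total, and has an exact upper bound of 2.66%. It led 0 of 770 in the older SM/J library, where the same limits are 0.390% and 0.478%. The 3 aliquots of SM/J at 12 months gave 24.4%, 22.4% and 25.6%. With a mitochondrial limit of 5% in place of 10% the share of Iglv2 in that library was 15.6%, and with at least 5 UMIs required it was 55.6%. In UMIs, Iglv2 had 35, 2, 225 and 2 in the 4 libraries, with the SM/J library at 12 months first in rank. Iglv1 led 2, 9, 3 and 6 cells and Iglv3 led 3, 1, 0 and 1, in the order BL/6 at 12 and 20 months and SM/J at 12 and 20 months. A lead by Iglv1 or Iglv3 did not always go with a lambda constant gene. Igkc had the most UMIs of the constant genes in 1 of 2, 6 of 9, 1 of 3 and 3 of 6 Iglv1 cells, in that order. The same held for 2 of 3 Iglv3 cells of BL/6 at 12 months and for the 1 Iglv3 cell of each library of 20 months. The lambda shares above count all these cells.

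The Iglv2 cells of SM/J at 12 months lay in the Fras1/Lmo7 gate, which 28 of 31 passed. Among the 36 assigned Fras1/Lmo7 cells with under 10 Jchain UMIs and outside the Zcwpw1 gate, Iglv2 led 21 (58.3%, 40.8 to 74.5%) and Igkv2-109 led 7 (19.4%, 8.19 to 36.0%). Each aliquot had 7 of these Iglv2 cells, out of 11, 12 and 13 assigned. Of the 404 cells of that library in the Fras1/Lmo7 gate, 357 had under 10 Jchain UMIs and lay outside the Zcwpw1 gate. These 357, assigned or not, had a median of 7 Igkc and 27 Iglc1 UMIs, and Iglc1 made up 53.8% of their light constant UMIs. In the 154 cells of SM/J at 20 months chosen in the same way the medians were 41.5 Igkc and 1 Iglc1 UMIs, and the share of Iglc1 was 3.39%. This leaves out the cells in both gates, 9 at 12 months and 201 at 20 months. Their medians were 51 and 343 Igkc UMIs and 9 and 15 Iglc1 UMIs. The constant genes, which need no V assignment, differed between the ages in the direction of the V segments.

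The constant region that went with Iglv2 differed between the strains. On the chromosome 16 locus, read from Iglv2, the genes follow as Iglv3, Iglc2, Iglv1, Iglc3 and Iglc1, and Iglv2 is known to join mostly with Iglc2 in mice. In the 5 Iglv2 cells of BL/6 at 12 months the constant gene with the most UMIs was Iglc2 in all 5, with 637 Iglc2 and 115 Iglc1 UMIs in sum. Their medians were closer, at 34 Iglc2 and 28 Iglc1 UMIs, and 1 of these 5 cells had at least 10 Jchain UMIs. In the 31 Iglv2 cells of SM/J at 12 months the top constant gene was Iglc1 in 30 and Igkc in 1. These cells had 6648 Iglc1 and 343 Iglc2 UMIs in sum, with medians of 40 and 10. Iglc1 is a known partner of Iglv1, which is 96.4% identical to Iglv2 in the reference. Whether reads of the SM/J animals were assigned to the right one of these segments was not tested. The cells led by Igkv2-109 in SM/J at 12 months were mixed: Iglc1 was the top constant gene in 7 of 15 and Igkc in 8, while Igkc was the top one in the 5, 5 and 23 such cells of BL/6 at 12 and 20 months and SM/J at 20 months.

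In the libraries of 20 months, some segments were often seen in cells that another segment led. These were picked after their values were seen, as the members most often present at 2 or more UMIs beside another leading segment. Iglv1 had 547 UMIs in SM/J at 20 months, of which 497 lay in cells led by another segment and 12 in the 6 cells it led. Iglv3 (106 of 129 UMIs), Igkv6-20 (244 of 328) and Igkv2-109 (200 of 352) likewise lay mostly in cells led by others. The leading segments did not: Igkv14-126 had 27 of 1992 UMIs in cells led by others, Igkv17-127 had 41 of 1414 and Igkv17-121 had 6 of 1219. In BL/6 at 20 months, Iglv1 had 178 of 356 UMIs in cells led by other segments, but Igkv6-20 had 98 of 108 in the 2 cells it led. Igkv2-109 in SM/J at 12 months had 24 of 159 UMIs in cells led by others and 102 in unassigned cells.

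**Figure D5:**
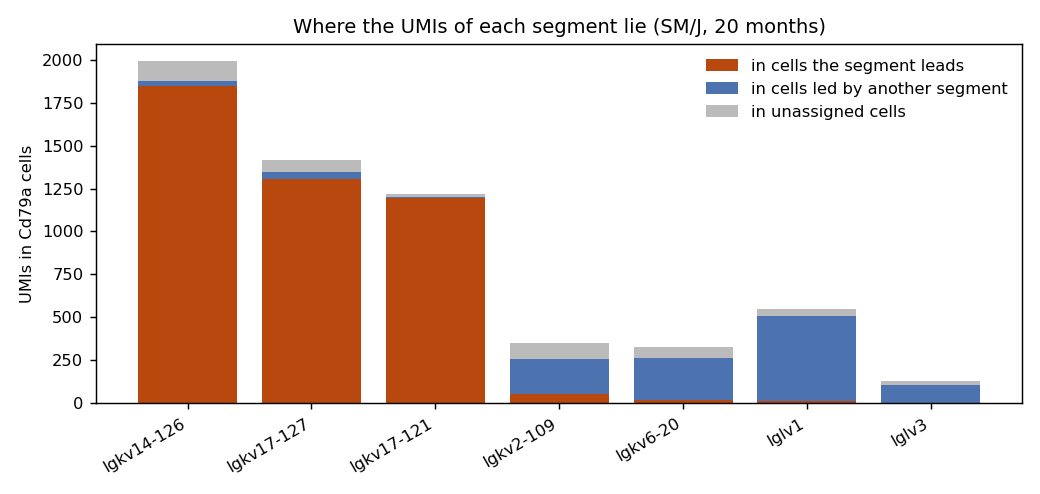
UMIs of 7 segments (bars; y axis, UMIs in Cd79a cells) in SM/J at 20 months, divided by whether the cell was led by that segment, led by another segment or unassigned. Nearly all UMIs of the 3 leading segments lie in cells they lead, whereas 497 of 547 Iglv1 UMIs lie in cells led by another segment.

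Cells with 2 or more segments at 2 or more UMIs made up 1.09% of assigned cells in BL/6 at 12 months and 21.9% at 20 months, and 3.82% and 18.7% in the SM/J libraries. The second segment was Iglv1, Iglv3, Igkv2-109 or Igkv6-20 in 20 of 30 such cells in BL/6 at 20 months, where Iglv1 alone made 19, and in 111 of 144 in SM/J at 20 months. The median ratio of the first to the second segment was 2.33 in the former and 3.00 in the latter. These cells were deep and rich in Igkc: in BL/6 at 20 months their medians were 12273.5 UMIs and 1745.5 Igkc UMIs, against 4268 and 29 in cells with 1 segment, and 28 of 30 were Jchain-high. The medians in SM/J at 20 months were 17141 and 571, against 11859.5 and 187, and 43 of 144 were Jchain-high. The part of depth, of doublets that were not called or of free RNA in these second segments was not tested.

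Cells with at least 10 UMIs of Jchain, which encodes the joining chain of IgM and IgA and marks plasma cells, numbered 3, 48, 45 and 83 in BL/6 at 12 and 20 months and SM/J at 12 and 20 months. The numbers in SM/J depended on the minimum. With 5 and 20 UMIs they were 149 and 15 at 12 months and 157 and 51 at 20 months, against 50 and 45 in BL/6 at 20 months. The cells with at least 10 UMIs differed in kind. In BL/6 at 20 months, 46 of 48 were in neither gate, Xbp1, the factor that drives secretion, was seen in 95.8% of them and the B cell genes Ms4a1 and Pax5 in 20.8% and 6.25%. In SM/J at 12 months 38 of 45 passed the Fras1/Lmo7 gate, Xbp1 was seen in 31.1% and Ms4a1 and Pax5 in 93.3% and 75.6%, which goes against the plasma cell name. Of the 83 cells in SM/J at 20 months, 77 passed the Zcwpw1 gate, with Xbp1 in 88.0%, Ms4a1 in 92.8% and Pax5 in 53.0%. Sdc1, the surface marker of plasma cells, was seen in 41.7%, 8.89% and 10.8% of the 3 larger groups. They are therefore called Jchain-high cells. All had Cd79a except 1 of the 83, and that cell is in the counts of this group only.

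The Jchain-high cells of the older libraries differed in how many light V segments they used. In BL/6 at 20 months 44 assigned cells used 28 segments, with an effective number of 23.0, and Iglv1, the most frequent, led 4 (9.09%, 2.53 to 21.7%). Over all 9 Iglv1 cells of that library, Jchain-high or not, Igkc was the top constant gene in 6. Igkv1-117, the leading segment of that library, led 1 of the 44 cells and Igkv14-126 led 0. Other than Iglv1 and Igkv10-96, which led 3, no segment led more than 2 of these cells. The 77 assigned cells of SM/J at 20 months used 7 segments, with an effective number of 3.04: Igkv14-126 led 35 (45.5%, 34.1 to 57.2%), Igkv17-127 led 20 (26.0%) and Igkv17-121 led 18 (23.4%). In 20 cells each, 16.4 segments would be seen in BL/6 and 4.04 in SM/J. No lambda segment led any of the 77, which allows a share of up to 3.90% at 3 cells of the total, with an exact upper bound of 4.68%. Only 10 of 45 cells in SM/J at 12 months could be assigned, and Iglv2 led 8 of them. Over all 45 cells the medians were 1 light V UMI, 7 Igkc UMIs and 44 Iglc1 UMIs. The 3 cells of BL/6 at 12 months were led by Igkv4-57, Igkv16-104 and Iglv2, 1 cell each.

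When all UMIs of Cd79a cells were summed per library, 20 of 40 members with at least 20 UMIs were higher in BL/6 at 20 than at 12 months by a log2 ratio of CPM + 1 of at least 1, and 3 were lower. Over all genes the shares were 4.13% higher and 1.09% lower, and the median log2 ratio was 0.99 for the members and 0.04 for all genes. Without the Jchain-high cells, 1 of 26 members was higher and 3 were lower, with a median of -0.17, and the shares of all genes were 3.67% and 0.973%. BL/6 at 20 months had 48 Jchain-high cells and BL/6 at 12 months 3, and the log2 ratio of Igkc was 1.54 with them and -0.17 without them. Igkv14-126 was lower in BL/6 at 20 months with or without them, at 10.4 CPM (95 UMIs) and 4.64 CPM (24 UMIs) at 12 and 20 months.

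In SM/J, 7 of 29 members were higher at 20 months and 4 were lower, against 5.51% and 6.27% of all genes. Igkv14-126 went from 5.20 to 93.5 CPM, Igkv17-127 from 5.07 to 66.4 CPM and Igkv17-121 from 2.16 to 57.2 CPM, while Iglv2 went from 28.5 to 0.0939 CPM. Iglv1 was also higher, at 25.7 against 5.07 CPM, although it led only 6 cells; without Jchain-high cells its log2 ratio was 0.77 in place of 2.14, below the limit for a call. Igkc was at 3878 CPM at 12 months and 20749 CPM at 20 months, and Iglc1 at 2646 and 728 CPM.

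Between the strains, 4 of 30 members were higher and 7 lower in SM/J than in BL/6 at 12 months, against 6.49% and 4.12% of all genes. Without Jchain-high cells these counts were 2 and 3 of 26, beside 6.48% and 4% of all genes. At 20 months 4 of 37 were higher and 21 lower, against 9.54% and 13% of all genes, and the median log2 ratio was -1.36 for the members and -0.16 for all genes. Without Jchain-high cells the counts at 20 months were 6 and 5 of 24, beside 10.3% and 13.7% of all genes. The 4 comparisons share libraries and are not independent. All other members had under 20 UMIs over the compared libraries.

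Of 22 genes listed for the light chain pathway, 15 to 17 could be compared. In BL/6, 3 of 15 were higher at 20 months, against 4.13% of all genes, namely Igkc, Iglc1 and Jchain, and none was lower, against 1.09%. Without Jchain-high cells only Jchain, the gene of that gate, was still called: the log2 ratio of Igkc was -0.17 and that of Iglc1 -0.05. In SM/J, 3 of 17 were higher at 20 months, against 5.51% of all genes, among them Igkc and Pou2af1, a coactivator of immunoglobulin genes. Lower were 2 of 17, against 6.27%: Iglc1 and Vpreb3, a relative of the surrogate light chain gene Vpreb1, which went from 86.9 to 12.8 CPM. Without Jchain-high cells Pou2af1 was no longer called, Igkc, Iglc1 and Vpreb3 were, and Jchain was also called lower. SM/J exceeded BL/6 at 12 months in 2 of 16, Iglc1 and Jchain, against 6.49% of all genes, and was below it in none, against 4.12%. At 20 months SM/J was below BL/6 in 3 of 17, Vpreb3, Spib and Jchain, against 13% of all genes. Without Jchain-high cells, Jchain and Igkc were called higher in SM/J (Igkc at a log2 ratio of 1.54 in place of 0.20), and Irf8 was called lower beside Vpreb3 and Spib. Counts of so few genes say little beside these shares.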

How the data were processed

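The deposited values are raw UMI counts in 4 gene-by-cell matrices, and per the file headers the software was Cell Ranger 7.0.1. The submitters' processing notes name the build mm10 and Seurat 4.3.0, whose part in these counts is not given in the sources used here. The matrices summed to 18234645, 19466469, 14250603 and 30627357 gene UMIs in BL/6 at 12 and 20 months and SM/J at 12 and 20 months. Cells with at least 500 UMIs, 200 genes and at most 10% mitochondrial UMIs were kept, and Scrublet calls (scanpy 1.11.5, expected rate 0.06, run per strain) were left out (39, 43, 23 and 25 cells), leaving 3400, 3101, 2405 and 2685. In the 12-month libraries, 16 BL/6 and 24 SM/J kept cells had their largest tag count from an oligo of the 20-month set; they stayed in the library but in no aliquot. Shares carry exact Clopper-Pearson intervals, and differences of shares Newcombe intervals. CPM used all UMIs of the Cd79a cells as total, with a pseudocount of 1 CPM for log2 ratios, and a call was a ratio of at least 1 in size with at least 20 UMIs over both libraries. A heavy segment was assigned by the rule for light segments. Functions were tested on simulated data. Named segments (13) were the 12 with the highest mean share over the libraries, the 3 leading ones of each library, the leading one of each subset with at least 50 assigned cells and of each library's Jchain-high cells, all lambda segments, the 3 with the largest rise and fall in share per comparison among those with at least 20 cells, and any with at least 50 cells in 1 strain and 0 in the other. Segments named beyond these were chosen after their values were seen. Members, gates and gene lists were chosen with earlier results of these data known. Alternatives were other UMI minimums, UMI shares, cell filters, thinning to 1000 UMIs, other gates, other limits for gene counts and leaving out each aliquot. Leaving out Jchain-high cells, also for changes in share, was added after seeing the data. Software was Python 3.11.15, numpy 2.4.6, pandas 2.3.3, scipy 1.17.1, anndata 0.12.19, scikit-image 0.26.0, matplotlib 3.10.9 and Biopython 1.88. Annotation was GENCODE M21. The result for 1 gene of the pathway list is not reported here.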

Additional observations from a re-analysis of the deposited data

Results flagged for a closer look

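The share of assigned cells led by Igkv14-126 moved in opposite directions with age in the 2 strains. It was lower at 20 than at 12 months in BL/6, by a difference of -6.19 percentage points (-11.8 to -0.385; 5 of 137 against 18 of 183 cells), and higher in SM/J, by 33.0 points (26.0 to 38.3; 325 of 770 against 12 of 131 cells). Jchain-high cells made up 44 of the 137 BL/6 cells at 20 months, none of them led by Igkv14-126, and 3 of the 183 at 12 months. Without Jchain-high cells, a comparison added after seeing the data, the difference was -4.62 points in BL/6 (-10.7 to 2.88; 5 of 93 against 18 of 180 cells), an interval that takes in 0, and 31.9 points in SM/J (24.3 to 37.4). Each direction comes from 1 library per age, and the difference between the strains was not tested.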

How the results depend on the processing

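With 1 UMI enough to assign a cell, BL/6 at 12 months gave 5.98% Igkv1-117, 11.7% lambda and an effective number of 36.4, and SM/J at 20 months gave 35.7% Igkv14-126 and 2.57% lambda. With at least 5 UMIs, the effective number was 5.54 in BL/6 at 12 months, Igkv1-117 led 2.22% in BL/6 at 20 months, Iglv2 and lambda were both 55.6% in SM/J at 12 months with an effective number of 2.79, and SM/J at 20 months had 37.5% Igkv14-126 and 0% lambda. As shares of UMIs, Igkv1-117 was 6.32%, lambda 15.1% and the effective number 30.2 in BL/6 at 12 months, Igkv1-117 was 4.96% and lambda 22.1% in BL/6 at 20 months, and Igkv14-126 was 28.5%, lambda 9.69% and the effective number 6.08 in SM/J at 20 months. In cells thinned to 1000 UMIs, which left 14, 17, 4 and 58 assigned cells, Igkv1-117 was 0%, lambda 21.4% and the effective number 7.54 in BL/6 at 12 months, Igkv1-117 was 23.5% and the effective number 9.97 in BL/6 at 20 months, the effective number was 4 in SM/J at 12 months, and Igkv14-126 was 31.0% and lambda 0% in SM/J at 20 months. A mitochondrial limit of 5% gave 15.6% Iglv2 and 17.2% lambda in SM/J at 12 months. A Fras1/Lmo7 gate of 1 or 4 UMIs gave 37.2% or 65.8% Igkv17-121 among cells in both gates. Only 2 Jchain-high cells of SM/J at 20 months lay outside the gates, and Igkv14-126 led 0% of those assigned. The cause of these moves was not tested.

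With at least 100 UMIs per gene, 2 members were higher and 1 lower with age in BL/6, 1 was lower with age in SM/J, 2 were higher and 2 lower in SM/J than in BL/6 at 12 months, and 4 were lower in SM/J than in BL/6 at 20 months; fewer genes are tested there. With at least 5 UMIs, 6 were lower with age in BL/6. At a log2 ratio of 2, 9 were higher and 1 lower with age in BL/6, 2 were lower with age in SM/J, 1 was higher and 0 lower in SM/J than in BL/6 at 12 months, and 12 were lower at 20 months. Without Jchain-high cells, 1 was higher with age in BL/6, 2 were higher and 3 lower in SM/J than in BL/6 at 12 months, and 5 were lower at 20 months. Leaving out 1 aliquot at a time gave effective numbers of 16.6 to 17.2 and 20.5 to 25.9 in BL/6 at 12 and 20 months and 9.55 to 11.3 and 3.58 to 3.93 in SM/J, and Igkv14-126 stayed at 41.4% to 42.9% in SM/J at 20 months and Iglv2 at 22.8% to 24.4% in SM/J at 12 months. No paired analysis was possible because each strain and age had 1 library and no test was made. At 1000 UMIs per cell under 20 cells were assigned in each of the 3 shallower libraries, so shares at equal depth are imprecise there. With 1 UMI enough at that depth, 206, 105, 127 and 327 cells were assigned in BL/6 at 12 and 20 months and SM/J at 12 and 20 months, with effective numbers of 26.2, 20.8, 18.1 and 6.27. The leading segments were then Iglv3, Igkv1-117, Igkv2-109 and Igkv14-126, so Igkv1-117 in the first and Iglv2 in the third did not lead.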
